A study of Mus musculus with 3 samples.

Results

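The genes of mitochondrial protein import and folding were described in gastrocnemius, the large calf muscle, of mice on 3 diets. They were chosen by name and by no measured value. The rule took the translocases of the outer and inner membrane (Tomm, Timm and Timmdc1), the sorting and assembly machinery (Samm50, Mtx1, Mtx2), and the intermembrane relay (Chchd4, Gfer). It also took the import motor (Hspa9, Grpel1, Grpel2, Pam16), the presequence peptidase (Pmpca, Pmpcb), and the chaperones and proteases of the matrix (Hspd1, Hspe1, Trap1, Lonp1, Clpp, Clpx). It found 41 genes among the 18194 genes with a probe set of a single symbol, and 82 of the 45101 probe sets on the array. Each gene was read from its brightest probe set, the one whose log2 signal, averaged over the arrays, was highest. Dnajc19, although named in the rule, and the small translocase subunits Tomm5 and Tomm6 were not analysed here, since their probe sets carried more than 1 gene symbol.

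The samples were muscles of male C57BL/6J mice, put on their diets at 6 weeks of age and fed them for 15 weeks. Control mice ate a diet with 10% of its energy as fat, HF mice one with 60%, and HF+SFC mice the 60% diet with 0.023% sodium ferrous citrate (SFC, an iron salt) by weight. All 3 diets held 20% of their energy as protein. An age of 21 months stands in the sample labels, which cannot be squared with 6 weeks plus 15 weeks. Each group was 1 Affymetrix mouse expression array, hybridised with a mix of the group's animals, and the number of animals in a mix was not given in the sources used here. With 1 array per group no spread between animals could be measured, so no test was run and no ratio below has a replicate error. Ratios are of MAS5 signals, a linear brightness that the authors scaled to the same trimmed mean on every array. Because every probe set binds with its own strength, a gene's level was compared between arrays and not with another gene's. Signals of several genes were added, or ranked over all genes, only to describe lists of markers and how bright a gene was.

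Nearly all mitochondrial proteins are encoded in the nucleus, made in the cytosol and imported unfolded. The TOM complex is the common gate in the outer membrane. Behind it, the SAM complex inserts barrel proteins in the outer membrane, the small TIM chaperones escort hydrophobic proteins, and the relay of Chchd4 (Mia40) and Gfer traps small cysteine-rich proteins by oxidising them. The TIM22 complex inserts carriers in the inner membrane, and the TIM23 complex passes proteins with a presequence to the matrix, where the motor pulls them in and the peptidase removes the presequence. The chaperonin made of Hspd1 and Hspe1 then folds them, and Lonp1 and the Clpx-Clpp protease remove what fails to fold. Skeletal muscle, rich in mitochondria, depends on this route for its respiratory chain.

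The tissue label fitted its markers. All 8 skeletal muscle markers were above the array median, and none of the 4 liver markers measured was, at signals of 6.15 to 100.9. Some of these lists moved between the arrays. The 8 slow fibre markers summed to 119119 on Control, 95276 on HF and 119227 on HF+SFC, and the 8 skeletal muscle markers to 390066, 355214 and 419346. The 5 adipocyte markers measured were all higher on HF than on Control, with a median of 4.33-fold, and had a median of 0.654-fold for HF+SFC against HF. Their sum, 22938, 32800 and 29459, was mostly Fabp4 and moved less than Adipoq, which read 901, 4637 and 2915. The 6 fibroblast and matrix markers measured, summing to 30490.0, 38595 and 38204, had a median of 1.42-fold for HF against Control. The 7 leukocyte markers summed to 3022, 3815 and 3680, with 6 higher on HF than on Control at a median of 1.24-fold. As a control of RNA quality, the 3′ to 5′ signal ratio of actin was 1.09, 1.52 and 1.15 on the same arrays, highest on HF. That of Gapdh was nearly level at 0.842, 0.832 and 0.820, so whether RNA quality differed was not settled. The part of these marker and control differences in the ratios below was not tested. In whole muscle, fewer cells of a type and less RNA per cell cannot be told apart.

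The import genes were mostly bright. Of the 41, 39 lay above the median signal of all 3 arrays (63.6, 67.4 and 68.0) and 37 were above the 75th percentile of mean signal, among the 4549 genes called the bright genes here. Tomm20l and Timm8a2, relatives of Tomm20 and Timm8a1, were below the array medians. Tomm20l read 46.8 on Control, 28.2 on HF and 8.80 on HF+SFC, and Timm8a2 read 2.28, 8.57 and 27.1. Their ratios, with log2 values of -0.73 and 1.91 for HF against Control, are those of dim probe sets, and whether these genes were expressed was not measured, as detection calls were not used.

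**Figure D1:**
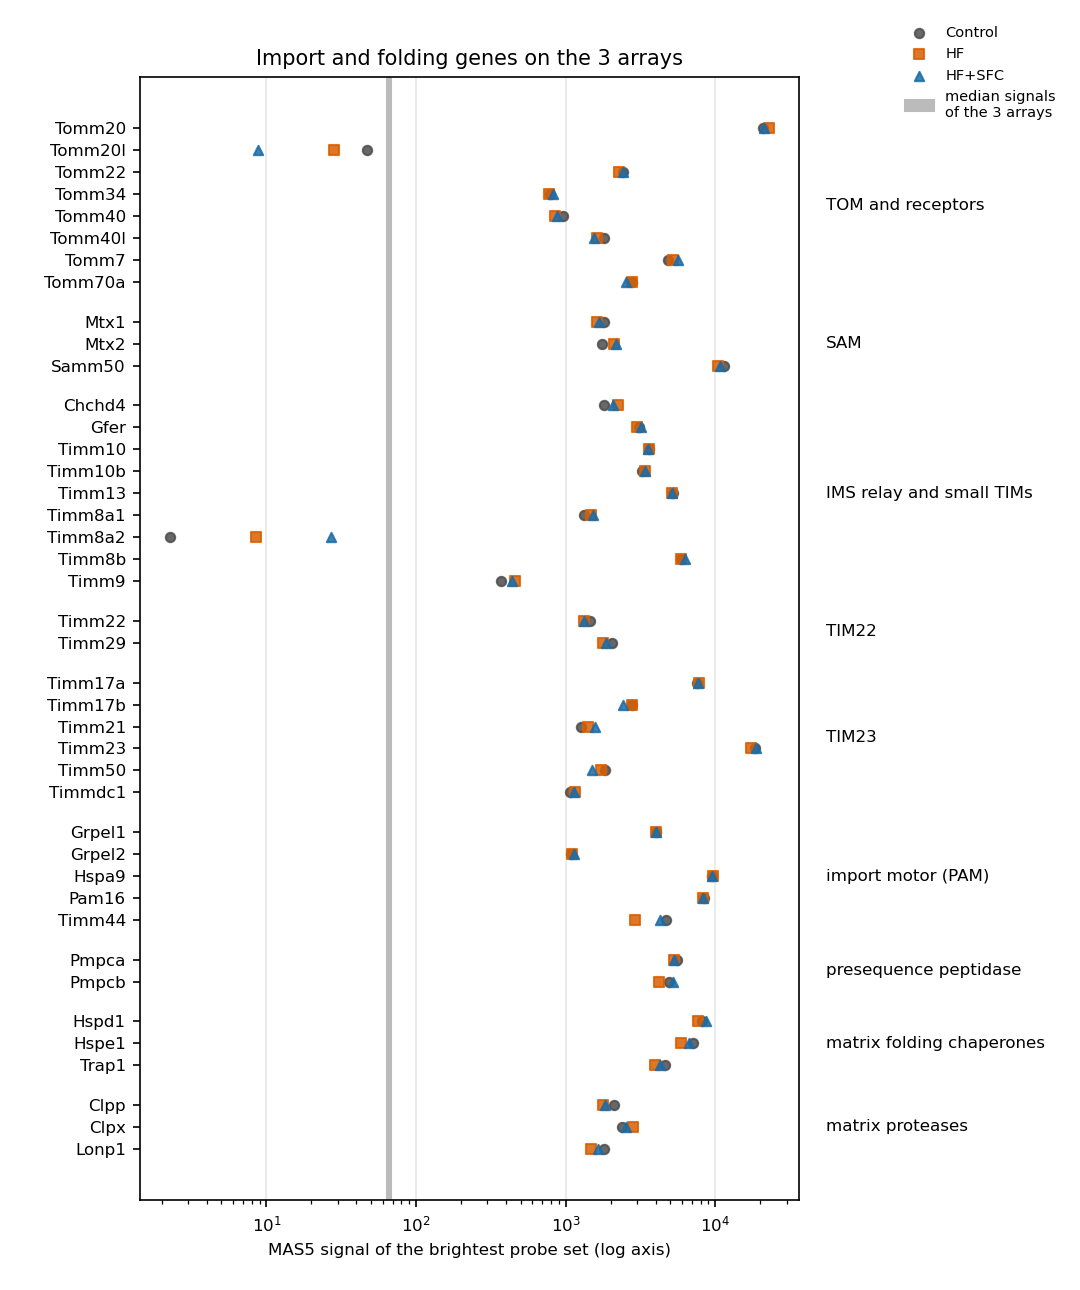
MAS5 signal (log axis) of the brightest probe set of each of the 41 import and folding genes, with 1 symbol per array (Control, HF, HF+SFC), in order of role, and the range of the 3 array medians as a grey band. In 39 rows the symbols of all 3 arrays sit to the right of the band and mostly on top of each other, and those of Tomm20l and Timm8a2 sit to its left.

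Which import genes differed between HF-fed and Control muscle was examined first. The group as a whole moved little: 15 genes were higher on HF and 26 lower, and the median of their log2 ratios was -0.03 (0.981-fold). Among all genes 50.7% were higher on HF, and among the bright genes 43.3%, with a median of -0.03 as well, so the import genes stood close to the bright genes as a whole. At a difference of at least 1.2-fold, 4 import genes were higher and 3 lower, against 28.1% and 23.4% of all genes and 7.43% and 9.08% of the bright genes. At the study's own threshold of 1.5-fold, 1 import gene was higher (Timm8a2) and 2 were lower (Tomm20l and Timm44), against 17% and 12.2% of all genes. Apart from the 2 dim genes, those past 1.2-fold were Chchd4, Timm9 and Mtx2 above and Timm44 and Lonp1 below Control. Centring signals on each array's median moved the log2 ratio of every gene alike, by -0.08. On that scale 10 of 41 import genes were higher on HF, 1 higher and 9 lower by 1.2-fold, and the median was -0.11. The shares of all genes and of the bright genes were not counted on that scale, so these counts have nothing to be set against.

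The high-fat diet with added iron was next compared with the high-fat diet alone, as HF+SFC against HF. Of the 41 genes, 25 were higher on HF+SFC and 16 lower, and their log2 ratios had a median of 0.03 (1.02-fold). Among all genes 51.4% were higher, and among the bright genes 55.7%, with a median of 0.02. At least 1.2-fold higher were 3 import genes, against 23.1% of all genes and 4.07% of the bright genes, and 1 was at least 1.2-fold lower, against 23.8% and 4.31%. Without the 2 dim genes, the genes higher by 1.2-fold were Timm44 and Pmpcb, and none was lower by 1.2-fold. At 1.5-fold, Timm8a2 was the 1 import gene higher and Tomm20l the 1 lower, against 13.7% and 13.5% of all genes. The ratios of the 39 brighter genes had an SD of 0.14 in this comparison and of 0.19 in HF against Control, beside 0.16 and 0.23 over the bright genes.

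Against Control, HF+SFC muscle had 21 import genes higher and 20 lower. The median of the log2 ratios was 0.01, where 52.4% of all genes and 49.7% of the bright genes were higher. The sign of that median turned under other settings, as given in the closing section. After centring on array medians, which moved every gene by -0.096 here, 7 of 41 genes were higher. The share of all genes was not counted at that setting. At 1.2-fold 3 genes were higher and 2 lower, against 27% and 22.3% of all genes and 5.21% and 6.59% of the bright genes. Above the array medians these were Mtx2 and Timm21, higher by 1.23-fold each, and Timm50, at 0.819-fold. At 1.5-fold the 2 dim genes alone remained, 1 each way, against 16.5% and 12.4% of all genes. This comparison shares its arrays with both of the others, so the 3 sets of ratios are not independent of each other.

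**Figure D2:**
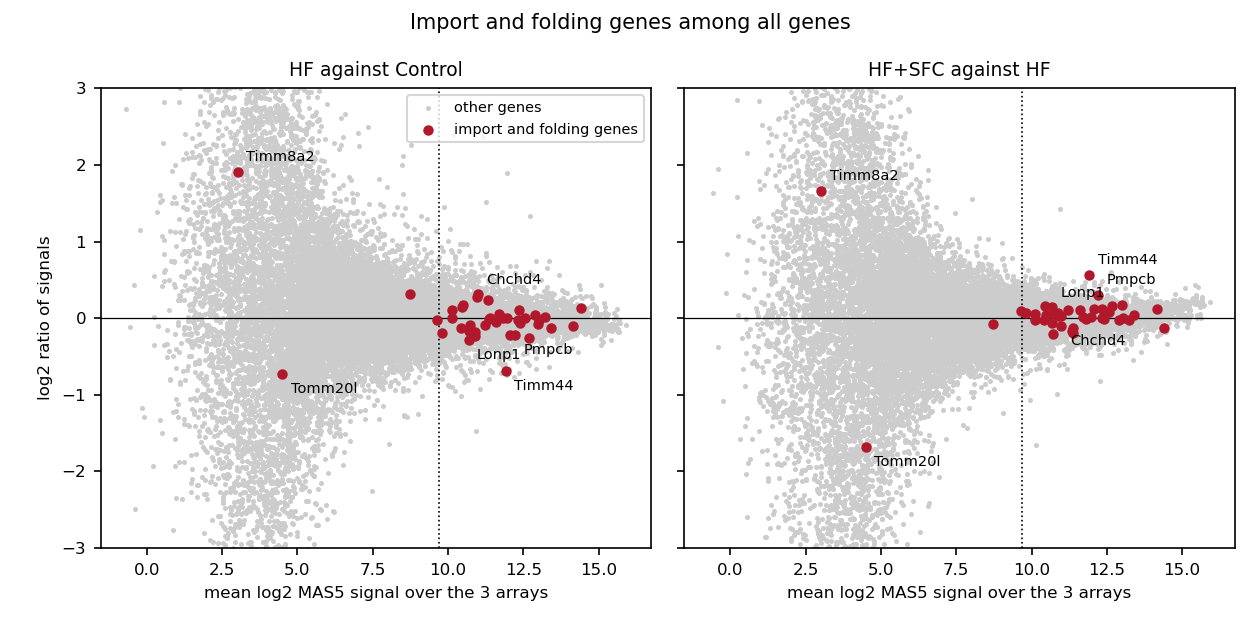
Log2 ratio of signals against mean log2 signal over the 3 arrays for all 18194 genes (grey) and the import and folding genes (red), for HF against Control (left) and HF+SFC against HF (right), with the 75th percentile of mean signal dotted. The red points lie mostly in the narrow part of the grey cloud at high signal, with Timm44 at its lower edge on the left (-0.70) and at its upper edge on the right (0.57). Ratios beyond 3 on either side are outside the axes.

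In the outer membrane, no TOM gene above the array medians was 1.2-fold apart on its brightest probe set between any 2 arrays. Tomm20, the receptor for presequences, read 20988 on Control, 23004 on HF and 21096 on HF+SFC, highest on HF by 1.10-fold over Control. Another of its 6 probe sets had a larger peak on HF, at 6491, 7938 and 5946, and the rest did not share one direction. Tomm7, a small subunit that tunes the stability of the complex, read 4843, 5212 and 5678, whereas a nearly as bright probe set read 4586, 4223.5 and 4529.6. Tomm40, the pore itself, read 966, 844 and 882, highest on Control. Its relative Tomm40l read 1811, 1613 and 1539 on one probe set and 528, 620.2 and 611 on the other, so it had no direction common to both. Tomm70a, the receptor for carrier precursors handed over by cytosolic chaperones, read 2769, 2763 and 2524, and on a second probe set 1873, 2314 and 1774, with a peak on HF that the first lacked. The central receptor Tomm22 and the cytosolic cochaperone Tomm34 moved by at most 0.11 on the log2 scale in any comparison. Over the 7 genes of this list above the array medians, 2 were higher on HF than on Control and 5 lower (median -0.03). For HF+SFC against HF, 4 were higher (median 0.06). The 7 include Tomm34, which is not a subunit of the complex, with log2 ratios of -0.03 and 0.10. Both medians depend on counting it, and they were not recomputed without it.

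Of the sorting and assembly genes, Mtx2 differed from its 2 partners. Mtx2, metaxin 2 of the outer membrane, read 1752 on Control, 2111 on HF and 2159.9 on HF+SFC, so that both high-fat arrays were above Control, HF by 1.21-fold. Mtx1, with which it forms the metaxin pair, read 1817, 1616 and 1675, with Control highest. Samm50, the barrel-inserting pore, read 11388, 10445 and 10740.0. Metaxin 2 thus went one way and metaxin 1 and Samm50 the other on the HF array, with log2 ratios of 0.27, -0.17 and -0.12, although a second probe set of Mtx1 read 1037, 1095 and 1048.

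In the intermembrane space the relay and the small TIM chaperones were mostly level. Chchd4, the oxidoreductase at the head of the relay, read 1806 on Control, 2246 on HF and 2086 on HF+SFC, highest on HF by 1.24-fold. Gfer, the sulfhydryl oxidase that recharges it, read 3082, 2988 and 3205, so the 2 relay genes did not share a direction on HF. The chaperone partners Timm9 and Timm10, which form a ring together, differed: Timm9 read 372, 463 and 438, and Timm10 read 3605, 3614 and 3583. The value of Timm9 depended on the probe set, since its other one read 152, 101 and 110, which turned the log2 ratio of HF against Control from 0.31 to -0.59. Timm8a1, the gene whose human counterpart is lost in deafness-dystonia syndrome, read 1321, 1487 and 1525, and its second probe set went the same way at 427, 538 and 569. Its partner Timm13 read 5217, 5149.7 and 5169, and Timm8b read 5941, 5929.9 and 6264. Timm10b, which docks the small TIM ring at the TIM22 complex, read 3237, 3374 and 3422. Of the 8 genes of this compartment above the medians, 5 were higher on HF than on Control (median 0.03) and 5 higher on HF+SFC than on HF (median 0.01).

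In the inner membrane, no translocase gene was 1.2-fold apart for HF against Control or HF+SFC against HF, but Timm21 and Timm50 were for HF+SFC against Control. Timm22, the channel that inserts metabolite carriers, read 1458 on Control, 1338 on HF and 1320 on HF+SFC, and Timm29, its structural partner, read 2036, 1789 and 1878, both highest on Control. Their second probe sets read 168, 196 and 199.5, and 552, 526 and 577, with Control not highest in either. Timm23, the channel for presequence proteins, read 18592, 17248 and 18819, lowest on HF by a log2 ratio of -0.11 to Control. Its paired subunits Timm17a and Timm17b read 7527, 7778 and 7651, and 2780.1, 2762 and 2425. Timm17b was therefore lowest on HF+SFC, with a log2 ratio of -0.19 to HF, but its second probe set read 1286, 1264 and 1336.

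The receptor Timm50, which catches presequences as they leave the TOM pore, read 1834, 1732 and 1503, the lowest value again on HF+SFC. A dimmer probe set of Timm50 went the other way, at 217, 261 and 283. Timm21, which links the TIM23 complex to the respiratory chain, was lowest on Control and highest on HF+SFC, at 1271, 1404 and 1569. Timmdc1, which shares the gene name but is known as an assembly factor of complex I, read 1070.5, 1149.95 and 1134. Leaving Timmdc1 out, 2 of the other 5 genes named for this complex were higher on HF than on Control (median -0.01) and 2 were higher on HF+SFC than on HF (median -0.02). With Timmdc1 the first median was 0.02, so its sign rests on that gene.

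**Figure D3:**
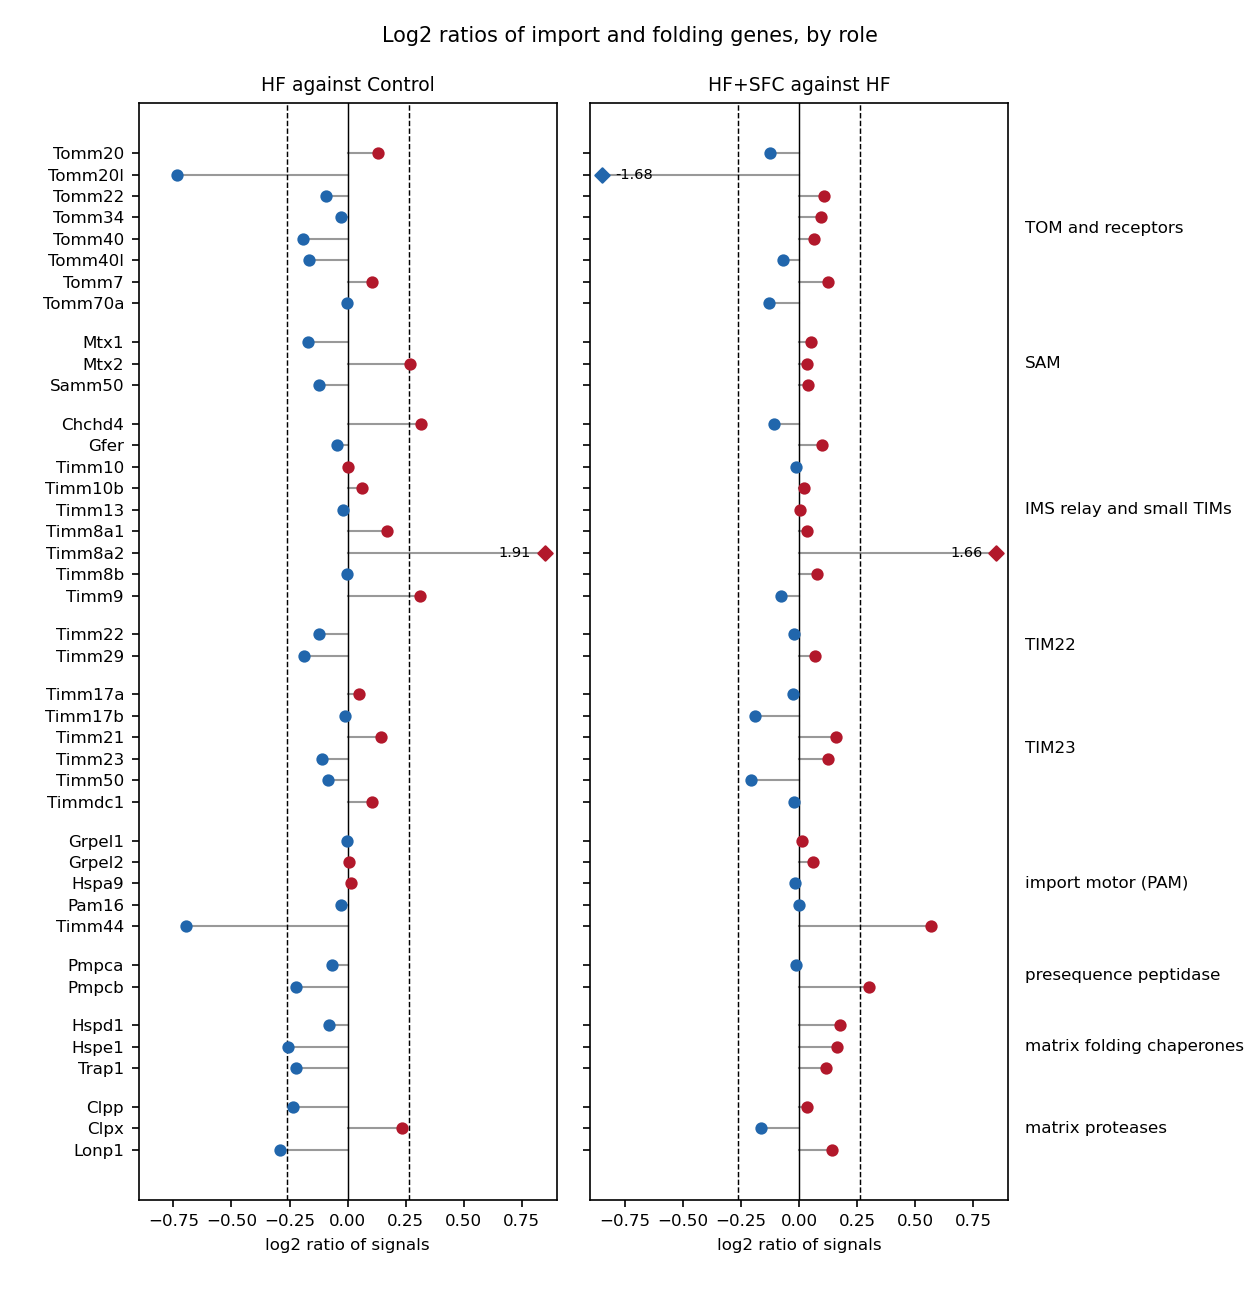
Log2 ratio of signals for each import and folding gene, grouped by role, for HF against Control (left) and HF+SFC against HF (right), with higher values red, lower values blue and the 1.2-fold limits dashed. Diamonds at the edges mark values outside the axis (Timm8a2 in both panels and Tomm20l on the right), and Timm44 is the bright gene farthest from 0 in both panels.

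In the import motor, Timm44 stood apart from its partners. Timm44 tethers the motor to the exit of the TIM23 channel, and it read 4697 on Control, 2901 on HF and 4303 on HF+SFC. The HF array was thus low and the other 2 arrays were close to each other, at 0.618-fold for HF against Control and 1.48-fold for HF+SFC against HF. Both ratios rest on the HF array, so they are not separate observations. The brightest probe set of Timm44 has a suffix that marks possible binding of unrelated transcripts. Its other 2 probe sets read 3446, 2851 and 3153, and 1089, 973 and 1067. They had HF lowest too, but with smaller log2 ratios of -0.27 and -0.16 for HF against Control and 0.15 and 0.13 for HF+SFC against HF.

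The rest of the motor was level on its brightest probe sets. Hspa9 (mortalin), the ATP-driven chaperone that does the pulling, read 9585, 9679 and 9552. Its nucleotide exchange factor Grpel1 read 4012, 4003 and 4037, the paralog Grpel2 read 1092, 1097 and 1142, and Pam16, the regulatory subunit, read 8421, 8264 and 8254. All 4 log2 ratios of HF against Control were between -0.03 and 0.01. For Hspa9 the other probe sets above the medians lay outside that range. One read 310, 318 and 335, a log2 ratio of 0.04. The other 2 read 8617, 6663 and 7054, and 1376, 923 and 1005, with log2 ratios to Control of -0.37 and -0.58.

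The subunits of the presequence peptidase differed in size of change. Pmpcb, the catalytic subunit, read 4931 on Control, 4230.5 on HF and 5219.8 on HF+SFC, lowest on HF, with 0.858-fold for HF against Control and 1.23-fold for HF+SFC against HF. Pmpca, the subunit that binds the presequence, read 5596, 5342 and 5297 and so had no such dip. A second Pmpcb probe set, with the suffix for cross-binding, went the other way at 2372, 2798 and 2635.

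The matrix folding chaperones were the group in which every gene was lowest on HF. Hspd1, the chaperonin ring, read 8177 on Control, 7731 on HF and 8735 on HF+SFC. Hspe1, the lid of that ring, read 7092, 5937 and 6643. Trap1, the mitochondrial member of the Hsp90 family, read 4639.8, 3972 and 4299. The 3 log2 ratios for HF against Control were -0.08, -0.26 and -0.22, none past 1.2-fold, and those for HF+SFC against HF were 0.18, 0.16 and 0.11. Both rest on the same HF array. The second probe set of Hspe1 read 2685, 2458 and 2383, and that of Trap1 read 2642, 2317 and 2075, so with these probe sets HF was below Control again but HF+SFC was lowest. Hspd1 had a single probe set.

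Among the matrix proteases, Lonp1 and Clpp were highest on Control. Lonp1, the main quality-control protease of the matrix, read 1821 on Control, 1490.4 on HF and 1645 on HF+SFC, at 0.818-fold on HF and with a single probe set. Clpp, the peptidase barrel, read 2105, 1788 and 1830.7, whereas Clpx, the unfoldase that feeds it, read 2400.5, 2821 and 2522. The 2 parts of this protease had log2 ratios of -0.24 and 0.23 for HF against Control. A second Clpp probe set, at 1558, 1691 and 1666, did not show this split.

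How far the choice of probe set settles a direction was counted over the 23 genes with another probe set above the array medians, 36 further probe sets in all. For HF against Control, 18 of the 36 had the sign of the brightest probe set of the same gene, and for HF+SFC against HF 15 did. Over all genes the share was 57.6% and 53.6% of 7571 such probe sets. For the import genes it was 50% and 41.7%. In 9 of the 23 genes no other probe set had the sign of the brightest one for HF against Control, and in 14 of 23 for HF+SFC against HF. The largest gap of another probe set from a gene's brightest one had a median of 0.22 on the log2 scale for HF against Control. For HF+SFC against HF it was 0.19, and the highest gap was 0.90, in Timm9 for HF against Control. Most ratios of single import genes given above were smaller than these gaps. Gaps between the other probe sets can be larger, as those of Tomm20 ran from -0.42 to 0.39 for HF+SFC against HF. Above the array medians, the genes past 1.2-fold with a single probe set, and thus without this check, were Chchd4, Mtx2, Lonp1 and, against Control, Timm21.

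**Figure D4:**
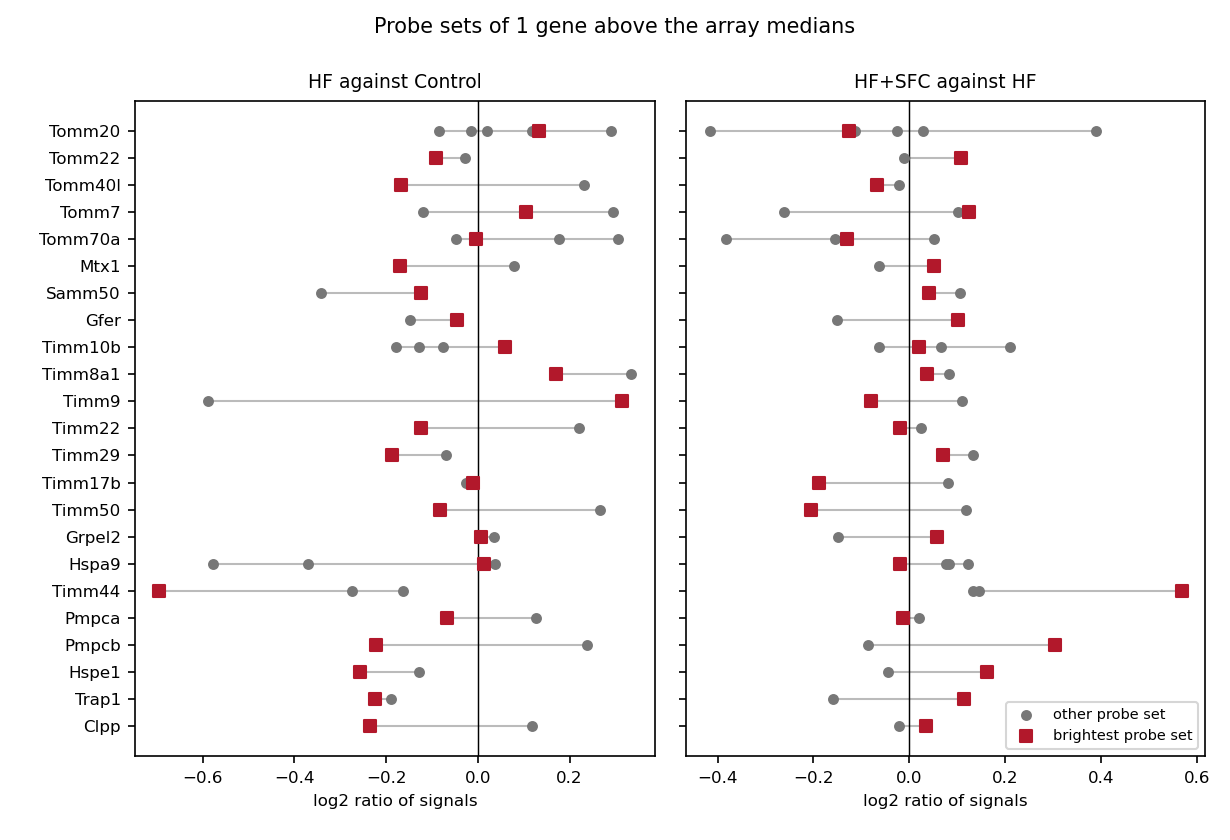
Log2 ratios of every probe set above the array medians, for the 23 import and folding genes with more than 1 such probe set, in HF against Control (left) and HF+SFC against HF (right); red squares are the brightest probe set of a gene, grey points its others, joined by a line. Many lines cross 0, while all 3 Timm44 probe sets stay left of 0 in the left panel and right of 0 in the right panel.

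Promoters were read to see what these genes share besides function. RefSeq windows from 250 bases before to 50 after a gene's start (GRCm38.p6) were given for 36 of the 41 genes, and not for Grpel2, Hspa9, Timm21, Tomm40l and Tomm7. The ETS motif CCGGAAG, bound by the nuclear respiratory factor GABPA and its relatives, was found on either strand in 18 of 36 (50%). It was in 9.93% of all genes with a window, 15% of the measured ones and 21.8% of the bright genes. The motif CGCANGCGC of NRF1, the other nuclear respiratory factor, was in 9 genes (25%), against 18.3% of the bright genes. The pair of inverted heat shock units TTCNNGAA was in 10 genes (27.8%), against 8.04% of the bright genes. In 4 of the 10 (Clpp, Timm10, Timmdc1 and Tomm22) every such match overlaps an ETS match, so the same letters were counted under both motifs. The opposite phase, GAANNTTC, was in 3 genes (Hspd1, Hspe1 and Timm9). That is 8.33%, close to the 6.97% of the bright genes and 9.04% of all genes. In Hspd1 and Hspe1 these matches lie on the same stretch of DNA. It was thus counted for both genes, here and under TTCNNGAA and ETS. The Sp1 motif GGGCGG was in 63.9% of the import genes and 71.2% of the bright genes. The motif TGATGNAAT, bound by CHOP with ATF4, was in none of the 36 windows, beside 1.08% of all genes. The YY1 motif AAGATGGCG was in 2 genes (5.56%), against 4.66% of the bright genes. The CRE TGACGTCA was in 1 (2.78%), against 3.94%. A match is a run of letters and not a measured binding site.

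Genes with and without the ETS motif had similar medians for HF against Control. The 18 genes with it had a median log2 ratio of -0.05 for HF against Control, and the 18 without it -0.04. For HF+SFC against HF the medians were 0.06 and -0.01, with 14 of 18 and 8 of 18 genes higher. For HF against Control, medians with and without the motif were -0.03 and -0.11 for Sp1, and -0.02 and -0.07 for NRF1. They were -0.01 and -0.06 for TTCNNGAA. For GAANNTTC, YY1 and CRE, in 3, 2 and 1 genes, the median with the motif was the lower one. The brightest probe sets were used for all these medians, and no test was run on them.

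Upstream stretches of 4 genes show these motifs, each the 200 bases before the start site, 5′ to 3′ on the gene's own strand, with the letters of the heat shock, ETS or NRF1 matches named for each in capitals. Sp1 matches were left in lower case. That of Hspe1 (chr1:55087948-55088147, plus strand, GRCm38.p6) is shown for its 3 overlapping pairs of heat shock units. These begin at positions -89, -84 and -79 from the start and run into an ETS motif. The stretch is also shared, as Hspd1 lies head to head with Hspe1. One of the 2 listed start sites of Hspd1 is 216 bases away on the other strand. For that start the windows of the 2 genes overlap by 285 bases. Pmpcb (chr5:21736960-21737159, plus strand) and Timm23 (chr14:32201892-32202091, minus strand) are shown for an ETS motif close to the start, at -16 and -47. Chchd4 (chr6:91473424-91473623, minus strand), highest on HF, is shown for an NRF1 motif at -196 and no ETS motif in its window.
Hspe1: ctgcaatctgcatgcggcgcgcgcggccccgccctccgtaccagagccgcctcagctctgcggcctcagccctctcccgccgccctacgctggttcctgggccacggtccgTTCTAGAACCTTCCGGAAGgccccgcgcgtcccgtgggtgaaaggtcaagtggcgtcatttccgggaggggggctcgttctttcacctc
Pmpcb: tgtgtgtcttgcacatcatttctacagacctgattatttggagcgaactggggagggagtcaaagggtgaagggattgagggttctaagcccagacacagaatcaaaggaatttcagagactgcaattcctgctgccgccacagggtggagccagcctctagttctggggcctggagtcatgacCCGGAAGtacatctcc
Timm23: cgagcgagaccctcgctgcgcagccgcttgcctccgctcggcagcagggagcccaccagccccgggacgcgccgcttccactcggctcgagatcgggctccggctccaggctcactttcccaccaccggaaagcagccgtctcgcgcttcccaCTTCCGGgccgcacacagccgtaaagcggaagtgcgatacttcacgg
Chchd4: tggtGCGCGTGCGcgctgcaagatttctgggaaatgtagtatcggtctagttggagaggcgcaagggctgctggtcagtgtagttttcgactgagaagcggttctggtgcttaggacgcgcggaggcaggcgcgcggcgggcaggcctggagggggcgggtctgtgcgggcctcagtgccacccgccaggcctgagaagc

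The signals of the genes on the shared promoter can be set beside this sequence. Hspd1 and Hspe1, given above, were both lowest on HF, by log2 ratios of -0.08 and -0.26 to Control. Of the cytosolic chaperone genes, some were highest on HF and others were not. Hspa1b, an inducible member of the Hsp70 family, read 1087 on Control, 2117 on HF and 1322 on HF+SFC, and its near-identical copy Hspa1a read 962, 1284 and 800.4. Probes cannot fully separate these 2 copies. Hsp90aa1 and Dnaja1, which keep precursors unfolded on the way to Tomm70a, read 4927, 5592 and 4730.4, and 1762, 1964 and 1653. Of the 9 cytosolic chaperone genes measured, 7 were higher on HF than on Control (median 0.16), against 50.7% of all genes and 43.3% of the bright genes. At least 1.2-fold higher were 2, against 28.1% and 7.43%. These were Hspa1a and Hspa1b, which may be 1 signal read on both. On HF+SFC, 2 of the 9 were higher than on HF (median -0.15), against 51.4% of all genes and 55.7% of the bright genes. Hspa8, the constitutive Hsp70 protein, read 31133, 28633 and 27952 and was not among those higher on HF, and Dnaja2 read 16956, 15721 and 18107. Dnajb1, a cochaperone of the Hsp70 family, was highest on HF+SFC, at 481, 546 and 596.

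Other genes of import and processing had ratios of similar size. Of the 21 measured of a list of 23, 9 were higher on HF than on Control and 12 lower (median -0.04), and 12 were higher on HF+SFC than on HF (median 0.03). Mipep, the peptidase that trims after Pmpcb, read 1289 on Control, 1026 on HF and 1100 on HF+SFC. Afg3l2, a protease of the inner membrane, read 1058, 850.4 and 935. These 2 were the genes of the list past 1.2-fold on HF, at 0.796-fold and 0.803-fold, and none was higher by that much. Among all genes 23.4% were lower and 28.1% higher by 1.2-fold, and among the bright genes 9.08% and 7.43%. Yme1l1, the inner membrane protease that faces the other side, was at the upper end with 1392, 1600.0 and 1752. Xpnpep3, an aminopeptidase, was highest on HF+SFC at 193, 209.6 and 259, and Afg3l1 was lowest there at 650.0, 645 and 562.

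The 7 genes measured of the MICOS complex, which shapes the cristae next to the import sites, had a median log2 ratio near 0 for HF against Control (4 higher, 3 lower) and of -0.01 for HF+SFC against HF (3 higher, 4 lower). Micos10 read 15859, 14389 and 16494, lowest on HF, Apoo read 8939, 9827 and 10318, and Chchd6 read 552, 476 and 407. Genes of the response to mitochondrial stress, which is known to raise Hspd1, Lonp1 and Trib3 among others, did not go one way. Atf4, a central transcription factor of it, read 8025, 6152 and 6783, and Atf5 read 1965, 1634 and 1714, both highest on Control. Chac1, a target of Atf4, read 9002, 7343 and 6133, whereas other targets, Asns and Trib3, read 141, 189 and 167, and 112, 149.96 and 99.0, with HF highest. Ddit3, which encodes CHOP, read 425, 504 and 445, and Fgf21, the stress hormone, was below the median of all arrays at 5.92, 4.67 and 7.63. Of the 7 genes measured, 3 were higher on HF than on Control and 4 lower.

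The import genes can be set beside genes of the proteins that the import route serves. Of 77 genes of the respiratory chain and ATP synthase, 14 were higher on HF than on Control and 63 lower (median -0.08), and 67 were higher on HF+SFC than on HF (median 0.12). Of 73 mitochondrial ribosomal genes, 27 were higher on HF (median -0.06) and 40 were higher on HF+SFC than on HF (median 0.03). The import genes, with 15 of 41 and 25 of 41 and medians of -0.03 and 0.03, were nearer to the ribosomal genes than to the respiratory chain in both comparisons. They were also near the bright genes as a whole, of which 43.3% and 55.7% were higher, with medians of -0.03 and 0.02. Nearness to the ribosomal genes was thus not particular to them. For HF+SFC against Control, the import median of 0.007 lay between -0.031 for the ribosomal genes and 0.045 for the respiratory chain. With 1 array per group, the difference between these groups of genes was not tested.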

How the data were processed

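The authors extracted total RNA from frozen gastrocnemius, made biotinylated cRNA and hybridised 1 array per group with the mixed samples of that group. Sources differ on whether cDNA or RNA was mixed. The deposited values are linear MAS5 intensities (version not given in the sources used here), with a mean of 500.004 on each array after trimming 2% at each end. Detection calls were not used.

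Probe sets were named from the array annotation, which can be old, and checked against a RefSeq table (GRCm38.p6): 34958 had 1 symbol, 932 several and 9211 none. Log2 ratios were taken between arrays without an offset, using each gene's brightest probe set, in Python 3.11.15 with pandas 2.3.3 and numpy 2.4.6. A gene was called different at 1.2-fold, below the study's 1.5-fold. The scripts were tested on simulated data. No test was run, as each group had 1 array.

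Members, lists, the threshold and alternatives were chosen with earlier results of these data known. Values on all arrays are given for the gene of highest mean signal in each role and those with the highest and lowest ratios, genes past 1.2-fold above the array medians, paralog pairs and dim genes. In other lists, those with the highest and lowest ratios among genes above the medians are named. Further genes and probe sets were added after their values were seen. Immp2l, Phb, Hsf1, Gdf15, Hsp90ab1, Plin1, Cfd, Fbn1 and Serpina1a were not analysed here.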

Additional observations from a re-analysis of the deposited data

How the results depend on the processing

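The ratios were recomputed under 8 alternatives, the last chosen after seeing the data, and at 1.5-fold. Of 102 medians and counts, 75 kept their sign and moved by less than 1.5 times. Of 954 ratios of single genes, 922 moved by less than 1.2-fold, with no change of sign in a ratio past 1.2-fold. Much of that total was fixed in advance. The filter on bright genes reuses the same ratios, and each centring shifts all genes alike by less than 1.2-fold. Averaging probe sets cannot move the 17 genes with 1 probe set. By setting, the share was 112 of 123 for the mean of all probe sets and 118 of 123 for the mean of those above the median. It was 89 of 99 without suffixes and 117 of 123 with the offset. No paired analysis was possible because each group had 1 array. Centring on array medians gave medians of -0.11, 0.020 and -0.089 for HF against Control, HF+SFC against HF and HF+SFC against Control, where the deposited scale gave -0.03, 0.03 and 0.01. It left 1 gene higher and 9 lower by 1.2-fold on HF than on Control, and on HF+SFC against Control 7 genes higher at any size, 1 higher by 1.2-fold and 5 lower. This centring moved all genes alike, and the shares of all genes were not counted beside these numbers. Centring on the bright genes gave medians of -0.011 and 0.022 for HF and HF+SFC against Control, and quantile normalization gave -0.0084 for the latter. The mean of all probe sets gave 0.016 for HF+SFC against HF, and -0.012 with 5 genes higher by 1.2-fold for HF+SFC against Control. The mean of probe sets above the array median gave -0.018, 0.0062 and -0.012, with 1 gene lower for HF+SFC against Control. Without probe sets with the suffixes a, s or x, 33 genes remained, of which 2 were higher by 1.2-fold on HF and 1 on HF+SFC against HF. An offset of 50 left 2 higher on HF. The filter on genes above the array median left 0 lower for HF+SFC against HF and 1 lower for HF+SFC against Control. At 1.5-fold, 1 gene was higher in each comparison and 1 lower for HF+SFC against Control. The mean of all probe sets changed the sign of 9 of 41 ratios for HF against Control and 9 for HF+SFC against HF, and leaving out suffixes changed 6 of 33 in each. Among the ratios that were themselves past 1.2-fold, only those of Timm9 and Timm50 given next changed sign. Timm9 in HF against Control went from 0.31 to -0.14 with the mean of all, to -0.59 without suffixes and to -0.14 with the mean of those above the median. Timm50 in HF+SFC against Control went from -0.29 to 0.38 without suffixes and 0.048 with the mean of those above the median. The cause was not tested.

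One pooled array per group limits every value here. Differences between animals were not measured, and a difference of one array from the others cannot be told apart from a difference between diets. Precision was not measured at any signal level, and 2 of 41 genes lay under the array medians.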
